A study of Homo sapiens with 60 samples.

Results

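Cells of the human line SW1783 were exposed to extracts of 2 herbal formulas, Sagunja-tang and Samul-tang, and the RNA of the cells given the highest dose of one was compared with that of the cells given the highest dose of the other. The compared libraries were chosen by their labels alone: 3 labelled Sagunja-tang high and 3 labelled Samul-tang high, 6 of the 60 libraries of the series. SW1783 is an established astrocytoma line from the American Type Culture Collection, grown in serum-supplemented Leibovitz's L-15 medium. Each formula was an ethanol extract, given for 24 h at 500 µg/mL (high), 100 µg/mL (medium) or 20 µg/mL (low), with 3 libraries per dose. RNA was read by paired-end sequencing, and the labels name no engineered allele for any group. The vehicle group of 3 libraries received dimethyl sulfoxide only, stated as 0.1% in the sample labels and as 2% in the series text. The titles give the vehicle and both formulas the same batch letter, F. Vehicle libraries carry the sample code F1 and all libraries of both formulas the code 14, whose meaning is not stated, so that extract and code cannot be told apart in any comparison with the vehicle. The 2 formulas share 1 code, and their direct comparison does not have this limit. Nothing in the labels says whether the 3 libraries of a group came from separate cultures, so the p-values measure only the spread between these libraries, which may be technical. In a culture, fewer cells of a kind and less RNA per cell cannot be told apart.

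Sagunja-tang and Samul-tang are classical formulas of East Asian medicine. Sagunja-tang joins ginseng, Atractylodes rhizome, Poria and licorice and is known as a tonic for qi, while Samul-tang joins prepared Rehmannia, Angelica, Cnidium and Paeonia roots and is known as a tonic for blood. Palmul-tang, also in the series, combines both recipes. Cultured glial cells make their own cholesterol and unsaturated fatty acids. When membrane sterol is low, the transcription factors SREBF1 and SREBF2 are cut free and switch on the genes of sterol and fatty acid synthesis, and when sterol is plentiful the protein INSIG1 holds them back. Bone morphogenetic proteins (BMP) act through SMAD proteins to raise the ID genes, inhibitors of differentiation factors that are also used as read-outs of the pathway in glia.

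Levels are given as CPM, counts scaled to the size and composition of each library, and differences as log2 of Sagunja-tang over Samul-tang, with the standard error (SE) of the fit, so that a positive value means a higher level under Sagunja-tang. A gene was called at an adjusted p below 0.05, with no minimum fold, by edgeR's quasi-likelihood test with Benjamini-Hochberg adjustment over all 17230 genes tested. The Sagunja-tang libraries held 26929143 to 37152410 counts and the Samul-tang libraries 27851483 to 30443150. Mitochondrially encoded genes took 5.97 to 6.92% of the counts under Sagunja-tang and 5.66 to 6.11% under Samul-tang. Of 17 astrocyte and glioma markers 10 passed the filter on low counts, among them VIM, CD44, SOX9 and CHI3L1, whereas the defining astrocyte genes GFAP, S100B, AQP4 and ALDH1L1 did not pass and OLIG1 was at 0 in all 6 libraries. SLC1A2 (means of 0.195 CPM under Sagunja-tang and 0.293 CPM under Samul-tang) and OLIG2 (0.196 and 0.327 CPM) passed at levels near 0. VIM (3708 and 3945 CPM) and CD44 (2516 and 2791 CPM) made up most of the sum over the list. The summed level of the 17 markers ran from 8030 to 8208 CPM under Sagunja-tang, from 8502 to 8850 CPM under Samul-tang and from 10310 to 10720 CPM in the vehicle libraries. Of 18 markers of neurons, oligodendrocytes, leukocytes, endothelium and epithelium 9 passed, MOG, AIF1 and CD3E were at 0 in all 6 libraries, and the sums were 213.1 to 226.6, 241.4 to 258.9 and 318.5 to 328.4 CPM in the same order. The part these shares and markers have in the results below was not tested.

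At 500 µg/mL the formulas differed at 3118 genes, 18.1% of those tested, with 1547 genes (8.98%) higher under Sagunja-tang and 1571 (9.12%) higher under Samul-tang. Counts of gene list members called in this comparison are to be read beside these shares. Most of the differences were small: the median absolute log2 difference of the called genes was 0.22, 345 genes differed by at least 1.5-fold and 95 by at least 2-fold. Among the genes at least 1.5-fold apart, 162 were higher under Sagunja-tang and 183 under Samul-tang, and the median over all genes tested was 0.00. The 3 libraries of one formula lay wholly above or below the 3 of the other at 5614 genes (32.6%). The number of called genes was 831 in a fit of all 57 libraries of the replicated groups and 2866 in the same fit without 2 libraries of a single herb, Astragali Radix low replicates 1 and 2. Of the 831 genes, 829 were among the 3118, and 52.6% of the 831 were higher under Sagunja-tang. List counts from that fit are to be read beside its 831 calls, not beside the shares of the main fit.

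**Figure D1:**
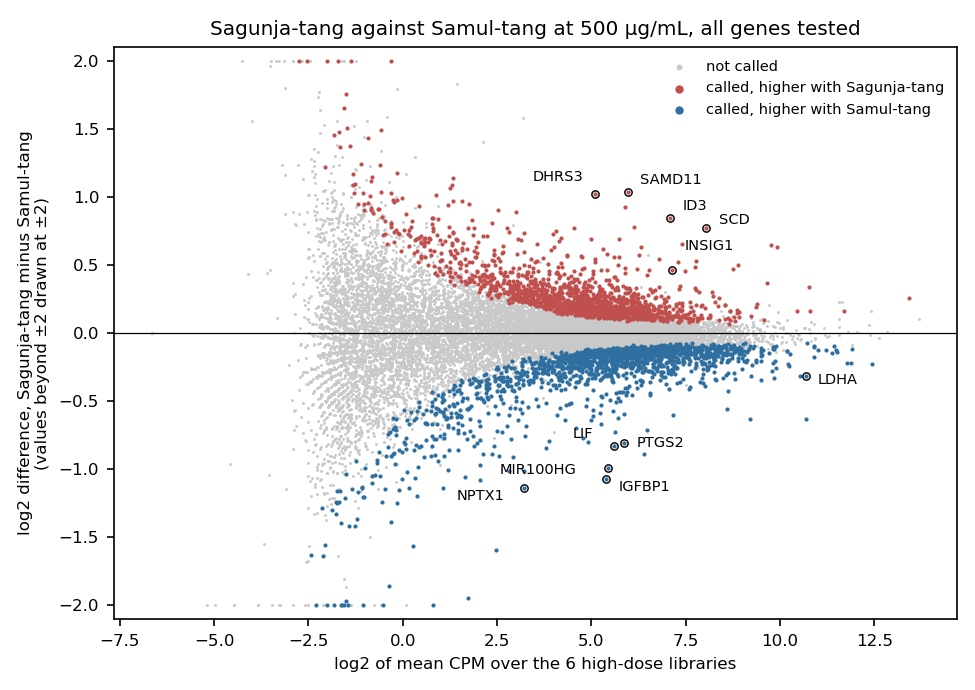
Log2 difference (Sagunja-tang high minus Samul-tang high, vertical axis) of each of the 17230 genes tested against its mean level in log2 CPM (horizontal axis), with called genes in colour, some of the named genes labelled and values beyond ±2 drawn at ±2. Genes called higher (1547) and lower (1571) lie on both sides of 0 at all levels, and most of them lie close to 0.

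Genes of cholesterol synthesis and uptake were higher under Sagunja-tang. Of 25 measured genes of this list 20 were called, all higher under Sagunja-tang, against 8.98% of all genes, and the median log2 difference was 0.32. INSIG1, the sterol-dependent anchor of the SREBF proteins (ENSG00000186480, GRCh38 chromosome 7, bases 155297776 to 155310235, plus strand), had 161, 157 and 169 CPM in the 3 Sagunja-tang libraries and 116, 119 and 119 CPM in the 3 Samul-tang libraries. All 3 Sagunja-tang libraries lay above all 3 Samul-tang libraries, with a log2 difference of 0.46 ± 0.04 (SE, adjusted p = 5.01e-10). DHCR7, the reductase that makes cholesterol in the last step of one branch of the pathway, had 49.8, 50.9 and 51.7 CPM against 33.4, 33.4 and 35.05 CPM, a difference of 0.58 ± 0.05 (adjusted p = 1.16e-10), and CYP51A1, the lanosterol demethylase, had 185, 186 and 176 CPM against 142, 150.2 and 138 CPM, a difference of 0.35 ± 0.03 (adjusted p = 1.51e-09). At the reductase and at the demethylase every Sagunja-tang library exceeded every Samul-tang library.

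SQLE, the epoxidase that opens the sterol part of the pathway, was chosen after its values were seen. It had 77.01, 74.3 and 74.9 CPM against 61.9, 66.1 and 60.8 CPM, with a difference of 0.26 ± 0.04 (adjusted p = 1.48e-05). The 5 measured members that were not called were PMVK, FDPS, TM7SF2, EBP and SC5D, with log2 differences of 0.08, 0.07, 0.37, 0.11 and 0.10. The 3 libraries of each formula did not overlap at 22 of the 25 genes, against 32.6% of all genes. In the fit of all 57 libraries 11 members were called, all higher. The difference was wider at 500 than at 20 µg/mL for 16 of the 25 genes by the test of that difference, which called 3.6% of all genes in this direction.

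Of 14 measured fatty acid synthesis genes 7 were higher under Sagunja-tang, against 8.98% of all genes, and 0 lower, with a median of 0.19. SCD, the desaturase that makes oleate (ENSG00000099194, chromosome 10, bases 100347124 to 100364834, plus strand), had 327, 330.2 and 337 CPM under Sagunja-tang and 196, 193 and 194 CPM under Samul-tang. No library of one formula came near the other, and the difference was 0.77 ± 0.04 (adjusted p = 1.89e-15). The polyunsaturated fatty acid desaturases FADS1 and FADS2 differed by 0.54 ± 0.03 (adjusted p = 3.63e-13) and 0.57 ± 0.04 (adjusted p = 3.29e-12). FADS1 had 130.0, 135 and 132 CPM against 88.9, 93.3 and 89.7 CPM, and FADS2 had 91.8, 92.1 and 91.8 CPM against 62.4, 61.96 and 61.2 CPM. MID1IP1, a protein that promotes assembly of acetyl-CoA carboxylase, had 59.01, 63.2 and 68.5 CPM against 40.9, 43.9 and 45.02 CPM, a difference of 0.56 ± 0.05 (adjusted p = 6.79e-10). FASN, the fatty acid synthase, differed by 0.30 ± 0.04 (adjusted p = 2.40e-06), a call that was lost in the fit of all 57 libraries. ACLY and ACACA, which supply the acetyl and malonyl units, were not called, with log2 differences of -0.05 and 0.06.

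The genes of both SREBF factors moved in the same direction as these lists. SREBF1 had 45.9, 47.7 and 49.2 CPM against 30.2, 31.1 and 31.9 CPM, a difference of 0.62 ± 0.06 (adjusted p = 2.35e-09), and SREBF2 had 107, 106 and 109 CPM against 76.3, 76.6 and 80.6 CPM, a difference of 0.46 ± 0.04 (adjusted p = 8.21e-11). Both genes were higher in all 3 Sagunja-tang libraries. Of the 14 measured genes of sterol sensing and of the sterol-activated LXR receptors, 4 were higher and 1 was lower, with a median of 0.04, and 2 were called higher without Sagunja-tang high replicate 3. The other members called higher were NR1H3, which encodes LXR alpha, at 0.48 ± 0.11 (adjusted p = 0.00266), and APOE, the lipid carrier of the brain, at 0.34 ± 0.11 (adjusted p = 0.0347). INSIG2, the relative of INSIG1, was the member called lower, at -0.18 ± 0.06 (adjusted p = 0.0496), and SCAP, the escort of the SREBF proteins, was not called, at -0.03.

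The upstream sequences of SREBF2 and MID1IP1 are shown because each holds a match to the sterol regulatory element, TCACNCCAC, searched on both strands in the 250 bases before the RefSeq start. They are from RefSeq (GRCh38.p14), 5′ to 3′ on the strand of the gene, up to the gene start of the GENCODE 29 annotation, and capitals mark the match. In MID1IP1 the match lies on the opposite strand. The windows are chr22:41832855-41833078 (plus strand) and chrX:38801209-38801431 (plus strand).
SREBF2: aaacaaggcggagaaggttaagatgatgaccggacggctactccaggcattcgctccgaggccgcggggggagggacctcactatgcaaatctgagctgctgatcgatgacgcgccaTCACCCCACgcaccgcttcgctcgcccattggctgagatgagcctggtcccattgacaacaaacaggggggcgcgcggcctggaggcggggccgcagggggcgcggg
MID1IP1: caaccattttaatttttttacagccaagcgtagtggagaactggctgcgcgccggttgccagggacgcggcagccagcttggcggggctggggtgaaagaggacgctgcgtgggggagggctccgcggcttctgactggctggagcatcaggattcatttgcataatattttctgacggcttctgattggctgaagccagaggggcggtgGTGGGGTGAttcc
The match began 133 bases before the RefSeq start of SREBF2 and 40 bases before that of MID1IP1. These letters stood in 0.883% of the 35116 promoters of the same length. Shares of all promoters count every entry, while a gene of a list is counted by its first entry. They stood in 1 of 12 promoters of the fatty acid list, which holds MID1IP1, in 1 of 12 of the sterol sensing list, which holds SREBF2, and in 0 of 19 of the cholesterol list, and also in 2 of 25 of the hypoxia and glycolysis list and 1 of 22 of the ATF4 list. The letters CCAAT, on either strand, stood in 16 of the 19 promoters of the cholesterol list (84.2%) and in 32% of all promoters. They also stood in 12 of 22 of the ATF4 list (54.5%) and 5 of 12 of the fatty acid list (41.7%). The sterol sensing list had 4 of 12 and the hypoxia and glycolysis list 8 of 25.

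Genes that BMP signalling raises formed a second group that was higher under Sagunja-tang. Of 15 measured BMP and SMAD target genes 7 were higher and 2 lower, with a median of 0.40, against 8.98% of all genes called higher and 9.12% called lower. ID3 (ENSG00000117318, chromosome 1, bases 23557918 to 23559794, minus strand) had 170.2, 185 and 171 CPM under Sagunja-tang and 100.1, 92.1 and 101 CPM under Samul-tang. The Sagunja-tang libraries lay close to the vehicle level of 176 ± 5.37 CPM (SD, n = 3) and the Samul-tang libraries well below it, with a difference between the formulas of 0.84 ± 0.07 (adjusted p = 6.99e-10). ID2 had 19.4, 21.4 and 18.5 CPM against 13.5, 10.4 and 11.8 CPM, a difference of 0.73 ± 0.08 (adjusted p = 3.72e-08). ID4, at low levels of 3.08, 3.10 and 2.79 CPM against 1.46, 1.52 and 1.68 CPM, differed by 0.94 ± 0.14 (adjusted p = 1.24e-05), and ID1 was chosen after its values were seen, at 0.32 ± 0.07 (adjusted p = 0.00101). All 4 ID genes were thus called in the same direction.

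ATOH8, a basic helix-loop-helix transcription factor, had 21.04, 21.2 and 20.4 CPM against 13.2, 11.4 and 12.6 CPM, a difference of 0.75 ± 0.08 (adjusted p = 4.31e-08). SMAD6, an inhibitory SMAD, had 12.9, 15.1 and 13.6 CPM against 9.58, 9.67 and 9.44 CPM and differed by 0.53 ± 0.08 (adjusted p = 1.52e-05). The 2 members called lower under Sagunja-tang, GREM1 at -0.52 ± 0.06 (adjusted p = 1.55e-07) and BMPER at -0.28 ± 0.05 (adjusted p = 7.79e-05), encode secreted proteins that bind BMP ligands outside the cell. SMAD7, BAMBI, HEY1, MSX1, MSX2 and NOG were not called. Of 16 measured ligands and receptors of the BMP and TGF-beta families 1 was called higher and 4 lower. BMP4, a ligand, had 6.99, 7.06 and 7.90 CPM against 8.35, 8.08 and 10.4 CPM, a difference of -0.28 ± 0.09 (adjusted p = 0.0233), and its call was lost in the fit of all 57 libraries and in the fit of only the 6 libraries compared. INHBA, an activin subunit, differed by -0.28 ± 0.04 (adjusted p = 1.50e-05), and GDF15, a stress-responsive member of the family, was the gene called higher, at 0.45 ± 0.11 (adjusted p = 0.00305). In this list 1 gene was called lower without Sagunja-tang high replicate 2 or Samul-tang high replicate 3 and 2 without Sagunja-tang high replicate 1.

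Of the 12 largest positive differences between the formulas, among genes with at least 5 CPM in one of them and no overlap of the libraries, 11 are described here: SAMD11, DHRS3, LINC00973, ZMIZ1-AS1, FYB1, ID3, BIVM-ERCC5, SCD, HCFC1R1, ATOH8 and TLCD1, with log2 values from 0.74 to 1.03. SAMD11 encodes a nuclear protein with a sterile alpha motif and had 82.7, 85.8 and 81.5 CPM under Sagunja-tang and 43.9, 38.0 and 40.2 CPM under Samul-tang. Its 3 Sagunja-tang libraries lay at the vehicle level of 83.2 ± 3.11 CPM, and the difference was 1.03 ± 0.10 (adjusted p = 2.32e-09). DHRS3, which reduces retinal back to retinol, had 41.6, 46.4 and 48.3 CPM against 21.1, 21.7 and 24.5 CPM, with 30.9 ± 1.28 CPM in the vehicle group. Here the Sagunja-tang libraries lay above the vehicle and the Samul-tang libraries below it, and the difference was 1.02 ± 0.06 (adjusted p = 1.17e-13). FYB1, an adaptor protein of leukocytes, had 9.14, 12.2 and 9.62 CPM against 5.76, 5.19 and 5.71 CPM, a difference of 0.89 ± 0.12 (adjusted p = 1.12e-06). TLCD1, a membrane protein that affects phospholipid composition, had 8.68, 9.21 and 8.38 CPM against 5.02, 5.19 and 5.48 CPM, and HCFC1R1, a regulator of host cell factor 1, had 29.1, 30.3 and 28.8 CPM against 17.2, 18.3 and 16.2 CPM. Their adjusted p-values were 3.72e-08 and 2.98e-11. The long noncoding RNAs LINC00973 (0.93 ± 0.06) and ZMIZ1-AS1 (0.91 ± 0.10) were higher as well. ZMIZ1-AS1 is antisense to ZMIZ1, and because the strand setting of the counting is not given in the sources used here, reads of the pair may not be separable. BIVM-ERCC5 is a readthrough of 2 genes that share its reads. Its difference of 0.77 ± 0.22 (adjusted p = 0.0131) lost its call without Sagunja-tang high replicate 3, without Samul-tang high replicate 2 and in the fits of 57 and 55 libraries.

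**Figure D2:**
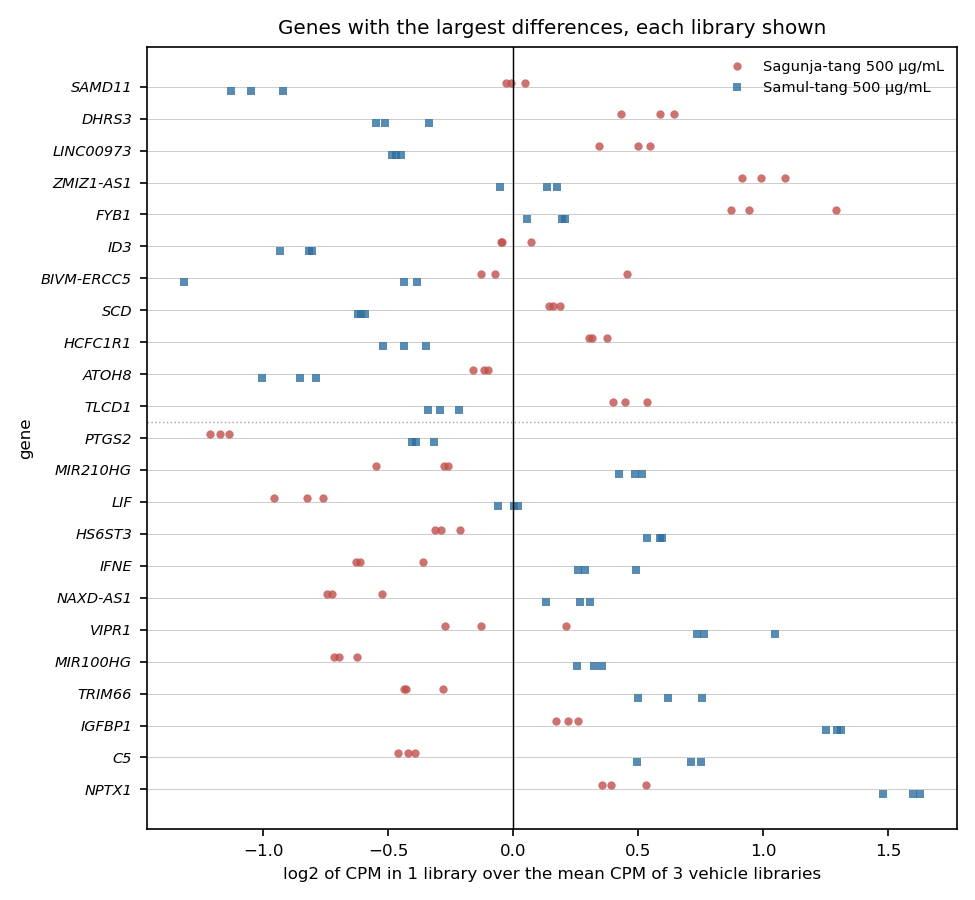
Log2 of the CPM in each library over the mean CPM of the 3 vehicle libraries (horizontal axis) for 11 of the 12 genes with the largest positive differences (above the dotted line) and the 12 with the largest negative ones (below it), with 1 point per library and 3 libraries per formula at 500 µg/mL. For every gene shown the 3 Sagunja-tang libraries (circles) lie on one side of the 3 Samul-tang libraries (squares). This separation was a condition for choosing the genes.

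The 12 largest differences in the other direction were at NPTX1, C5, IGFBP1, TRIM66, MIR100HG, VIPR1, NAXD-AS1, IFNE, HS6ST3, LIF, MIR210HG and PTGS2, with log2 values from -1.14 to -0.81. NPTX1, a secreted pentraxin that clusters glutamate receptors at synapses (ENSG00000171246, chromosome 17, bases 80467148 to 80477843, minus strand), had 5.60, 5.46 and 6.17 CPM under Sagunja-tang and 11.9, 13.2 and 12.9 CPM under Samul-tang. The Samul-tang libraries were the highest of the 3 groups, with 4.27 ± 0.575 CPM in the vehicle libraries, and the difference was -1.14 ± 0.09 (adjusted p = 1.37e-10). IGFBP1, a secreted protein that binds insulin-like growth factors (ENSG00000146678, chromosome 7, bases 45888357 to 45893668, plus strand), had 27.9, 27.1 and 26.2 CPM against 57.2, 57.8 and 55.4 CPM. With 23.3 ± 1.61 CPM in the vehicle group, the Samul-tang libraries alone stood far from it, and the level under Samul-tang was 2.10-fold that under Sagunja-tang (adjusted p = 2.71e-13). C5, a complement component, had 2.58, 2.66 and 2.71 CPM against 5.99, 5.82 and 5.02 CPM, a difference of -1.08 ± 0.11 (adjusted p = 8.08e-09). MIR100HG, the host transcript of miR-100, had 29.9, 28.1 and 28.4 CPM against 58.97, 57.7 and 54.98 CPM, a difference of -0.99 ± 0.04 (adjusted p = 3.17e-16), with the vehicle between them at 46.1 ± 1.22 CPM. VIPR1, a receptor of vasoactive intestinal peptide, had 4.84, 3.46 and 3.82 CPM against 6.96, 7.09 and 8.65 CPM, and HS6ST3, a heparan sulfate sulfotransferase, had 9.64, 9.79 and 10.3 CPM against 18.1, 18.0 and 17.4 CPM. The remaining members of this group were TRIM66 (-1.01 ± 0.10), IFNE, an interferon (-0.88 ± 0.11), and NAXD-AS1 (-0.89 ± 0.11), an antisense transcript with the same limit on strand.

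Of the 17 measured genes of insulin-like growth factor binding and insulin receptor substrates, 5 were called higher, 2 lower, and the median was 0.11. IGFBP5 was the other member called lower, with 42.2, 42.9 and 40.3 CPM against 58.9, 58.4 and 60.9 CPM and a difference of -0.51 ± 0.05 (adjusted p = 1.94e-08). IGFBP6 (0.29 ± 0.04) and IGFBP3 (0.14 ± 0.03) were higher, both lost in the fit of all 57 libraries. FOXO1, a transcription factor that raises IGFBP1 in liver, had 15.2, 13.98 and 15.2 CPM against 11.8, 12.3 and 11.4 CPM and was higher under Sagunja-tang, at 0.32 ± 0.07 (adjusted p = 0.0023), opposite in sign to IGFBP1. In this list 3 genes were called higher without Sagunja-tang high replicate 3, Samul-tang high replicate 1 or Samul-tang high replicate 3, and 1 in the fit of all 57 libraries.

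Genes of retinoid metabolism and retinoid targets held 5 higher and 1 lower of 10 measured, against 8.98% and 9.12% of all genes. Their median was 0.22. Besides DHRS3, the retinoic acid hydroxylase CYP26B1 had 51.1, 46.5 and 50.5 CPM against 36.3, 36.1 and 35.2 CPM, a difference of 0.46 ± 0.06 (adjusted p = 2.65e-07). STRA6, a retinol transporter, differed by 0.26 ± 0.05 (adjusted p = 6.54e-04). ALDH1A3, which makes retinoic acid, went the other way, with 792, 816 and 836 CPM against 1012, 1019 and 1040.0 CPM, a difference of -0.33 ± 0.04 (adjusted p = 3.34e-07). The receptors RARB and RARG were not called, at 0.06 and -0.07.

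Hypoxia and glycolysis genes were lower under Sagunja-tang. Of 28 measured members 20 were lower, against 9.12% of all genes, 2 were higher and the median was -0.17. SLC2A1, the main glucose transporter of these cells, had 164, 164 and 168 CPM under Sagunja-tang and 219, 217 and 224 CPM under Samul-tang, a difference of -0.41 ± 0.03 (adjusted p = 1.25e-11). LDHA, which makes lactate, had 1427, 1505 and 1429 CPM against 1803, 1794 and 1831 CPM, a difference of -0.32 ± 0.03 (adjusted p = 6.79e-10). Both genes were lower in all 3 Sagunja-tang libraries. NDRG1 (38.3, 39.2 and 37.6 CPM against 55.3, 57.97 and 57.3 CPM, -0.57 ± 0.05, adjusted p = 5.77e-10) and BNIP3, a mitophagy receptor (79.5, 82.6 and 75.2 CPM against 111, 107 and 108 CPM, -0.46 ± 0.04, adjusted p = 2.41e-09), are classical hypoxia-induced genes. HK2, the inducible hexokinase, had 49.6, 50.2 and 46.97 CPM against 66.6, 66.5 and 65.3 CPM and differed by -0.44 ± 0.05 (adjusted p = 1.79e-08). MIR210HG, the host of the hypoxia-induced miR-210, had 3.35, 4.04 and 4.08 CPM against 6.86, 6.99 and 6.57 CPM, a difference of -0.83 ± 0.10 (adjusted p = 3.18e-07). The 2 members called higher were ALDOC (0.43 ± 0.08), the aldolase of brain, and PFKFB4 (0.17 ± 0.06), and both were chosen after their values were seen. HK1, PFKL, ALDOA, SLC2A3, ADM and ANKRD37 were not called. In the fit of all 57 libraries 1 member was higher and 11 were lower.

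The start of the LDHA window is shown because it holds the core letters of the hypoxia response element, ACGTG, in both orientations. It is chr11:18394313-18394387 (plus strand, RefSeq, GRCh38.p14), cut at the GENCODE 29 gene start, with the match in capitals.
LDHA: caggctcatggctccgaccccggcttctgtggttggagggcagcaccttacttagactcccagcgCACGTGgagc
The full window of 250 bases before the RefSeq start held 5 matches on either strand, of which the 2 shown overlap. At least 1 match stood in 12 of 25 promoters of the hypoxia and glycolysis list (48%) and in 18.5% of all promoters.

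Several cytokine and early-response genes were lower under Sagunja-tang. Of 21 measured NF-kB and inflammatory genes 7 were lower and 2 higher, against 9.12% and 8.98% of all genes. The median of this list was -0.12, and -0.20 without Samul-tang high replicate 2. LIF, a cytokine that acts on glia, had 32.3, 35.5 and 37.1 CPM under Sagunja-tang and 60.3, 63.6 and 63.0 CPM under Samul-tang. With 62.9 ± 5.45 CPM in the vehicle group, the Samul-tang libraries were at the vehicle level and the Sagunja-tang libraries below it, and the difference was -0.83 ± 0.06 (adjusted p = 3.51e-12). PTGS2, the inducible cyclooxygenase, had 41.2, 43.5 and 42.3 CPM against 72.2, 76.8 and 73.1 CPM, both below the vehicle level of 95.6 ± 4.76 CPM, a difference of -0.81 ± 0.07 (adjusted p = 6.17e-10). CXCL8, the neutrophil chemokine, had 5.10, 6.33 and 4.72 CPM against 8.90, 10.6 and 8.09 CPM, a difference of -0.78 ± 0.12 (adjusted p = 2.41e-05). CCL2, the monocyte chemokine, differed by -0.39 ± 0.08 (adjusted p = 5.36e-04), a call lost in the fit of all 57 libraries. The 2 genes called higher were RELB (0.24 ± 0.05), an NF-kB subunit, and ICAM1 (0.24 ± 0.05), an adhesion molecule chosen after its values were seen. NFKBIA, NFKB1, NFKB2, IL6 and IL1B were not called.

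Of 14 measured YAP/TAZ target genes 9 were lower under Sagunja-tang and 0 higher, with a median of -0.15. Here and for the next lists, 9.12% of all genes were called lower and 8.98% higher. F3, tissue factor, had 116, 112 and 112 CPM against 177, 168 and 173 CPM, a difference of -0.60 ± 0.04 (adjusted p = 2.19e-12). CCN1, a matricellular protein, had 309, 314 and 321 CPM against 471, 450.1 and 465 CPM, a difference of -0.55 ± 0.05 (adjusted p = 2.48e-10). At both genes the Samul-tang libraries were above the vehicle group and the Sagunja-tang libraries below it. NT5E, CRIM1 and LATS2 were lower by smaller amounts, at -0.25 ± 0.03, -0.22 ± 0.03 and -0.22 ± 0.06. Without Sagunja-tang high replicate 2, 5 members were called lower, and 4 in the fit of all 57 libraries. Of 24 measured genes of MAPK feedback and early response 7 were lower and 2 higher, and 3 or 4 were called lower when any of the 3 Sagunja-tang libraries or Samul-tang high replicate 2 was left out. EGR1, an early-response transcription factor, had 30.2, 32.2 and 33.2 CPM against 45.96, 41.1 and 44.6 CPM, a difference of -0.46 ± 0.06 (adjusted p = 3.23e-07). In the list of matrix and remodelling genes, 10 of 27 were lower and 2 higher, among them PLAU, the urokinase, at -0.44 ± 0.04 (adjusted p = 2.16e-09), and MMP14 at -0.22 ± 0.03, while PLAT, the tissue plasminogen activator, was higher at 0.23 ± 0.04. In the fit of all 57 libraries 1 matrix gene was called in each direction. Of 14 measured serum response factor and actin genes 5 were lower, and 3 without Sagunja-tang high replicate 2, Samul-tang high replicate 1 or Samul-tang high replicate 3.

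Genes of the ATF4 amino acid response split. Of 27 measured members 11 were higher and 5 lower, against 8.98% and 9.12% of all genes, with a median of 0.09. ASNS, asparagine synthetase, had 102, 101 and 101 CPM under Sagunja-tang and 75.4, 72.6 and 77.8 CPM under Samul-tang, a difference of 0.43 ± 0.04 (adjusted p = 1.76e-10). DDIT3, the stress transcription factor also known as CHOP, had 38.8, 42.9 and 38.9 CPM against 27.7, 27.2 and 27.7 CPM, a difference of 0.54 ± 0.05 (adjusted p = 2.87e-09). PSAT1, of serine synthesis, differed by 0.33 ± 0.04 (adjusted p = 1.39e-07), and NUPR1, a stress-induced nuclear protein chosen after its values were seen, had 11.3, 11.1 and 12.1 CPM against 6.73, 6.42 and 7.62 CPM. STC2, a secreted glycoprotein, was lower under Sagunja-tang, with 448, 480.1 and 448 CPM against 688, 727 and 711 CPM, a difference of -0.63 ± 0.05 (adjusted p = 8.93e-12), and SLC38A2, an amino acid transporter, differed by -0.42 ± 0.04 (adjusted p = 1.31e-09). The transporters SLC7A11 and SLC1A5 and the receptor VLDLR were the other members called lower, at -0.36, -0.19 and -0.37. The gene ATF4 itself was not called, at -0.00 ± 0.04 (adjusted p = 0.993).

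The letters of the C/EBP-ATF response element, TGATGNAA, stood once in the ASNS window, 68 bases before the RefSeq start. The site is shown with its neighbours, chr7:97872458-97872487 (minus strand, RefSeq, GRCh38.p14), with the match in capitals.
ASNS: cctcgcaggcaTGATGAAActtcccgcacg
These letters, on either strand, stood in 3 of 22 promoters of the ATF4 list (13.6%) and in 3.14% of all promoters.

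Smaller groups that were higher under Sagunja-tang included lysosomal genes, zinc-binding metallothioneins, interferon-stimulated genes and DNA replication genes. Of 21 measured lysosome and TFEB target genes 8 were higher, against 8.98% of all genes, and 0 lower, with a median of 0.07. SQSTM1, the autophagy receptor p62, led this list, with 1149, 1135 and 1226 CPM against 766, 738 and 766 CPM and 544 ± 1.73 CPM in the vehicle group. Both formulas lay above the vehicle, Sagunja-tang more so, and they differed by 0.63 ± 0.04 (adjusted p = 3.51e-12). GPNMB (0.32 ± 0.04) and FLCN (0.25 ± 0.05) were higher by less, and 5 members were called without Sagunja-tang high replicate 3 or Samul-tang high replicate 2 and 2 in the fit of all 57 libraries. Of 7 measured metallothionein and zinc genes 3 were higher. MT1E had 20.1, 22.2 and 22.2 CPM against 12.9, 12.7 and 14.8 CPM, a difference of 0.67 ± 0.08 (adjusted p = 4.55e-07), and MT1X had 17.2, 18.8 and 19.3 CPM against 12.8, 11.3 and 12.1 CPM, a difference of 0.61 ± 0.09 (adjusted p = 9.59e-06). Metallothionein genes are near-identical copies, so that reads may be split between them and single members are uncertain. MT2A, the most abundant of them, was not called, at 0.17.

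Interferon-stimulated genes were called higher at 10 of 21 and lower at 0, with a median of 0.20. Beside this list and the next ones, 8.98% of all genes were called higher and 9.12% lower. ISG15, a ubiquitin-like modifier, had 29.4, 34.6 and 29.7 CPM against 21.2, 22.4 and 23.8 CPM, a difference of 0.47 ± 0.07 (adjusted p = 1.04e-05). OAS3 (0.30 ± 0.06), IFI44L (0.23 ± 0.04), PSMB9 (0.27 ± 0.06) and IFIT1 (0.42 ± 0.10) were higher too, and IRF1 and HLA-B were not called. Sagunja-tang high replicate 2 was the highest of the 3 Sagunja-tang libraries at ISG15, IFIT1, OAS3 and IFI44L, and in the fit of all 57 libraries 2 members were called. Without Sagunja-tang high replicate 2 the list had 7 genes called higher and a median of 0.10, and without Samul-tang high replicate 1 it had 7 and a median of 0.12. Of 22 measured genes of DNA replication and S phase 14 were higher and 0 lower, with a median of 0.10. POLE2, a subunit of DNA polymerase epsilon, had 17.2, 15.8 and 17.7 CPM against 12.4, 12.5 and 12.2 CPM, a difference of 0.46 ± 0.06 (adjusted p = 2.79e-06). Leaving out Sagunja-tang high replicate 2 or Samul-tang high replicate 1 left 9 of the 14, and the fit of all 57 libraries called 3. Of 25 measured mitotic genes 5 were higher and 1 lower, with a median of 0.02, and 1 to 3 were called higher when any of 5 of the 6 libraries, all but Samul-tang high replicate 2, was left out.

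Xenobiotic and oxidative stress genes, which herbal extracts often raise, were called in both directions among NRF2 targets. The aryl hydrocarbon receptor targets that were called were all lower under Sagunja-tang. Of 29 measured NRF2 target genes 8 were higher and 5 lower, with a median of 0.00, and NFE2L2, the gene of NRF2, was not called, with 74.5, 72.2 and 72.03 CPM against 72.7, 74.2 and 74.1 CPM (-0.02 ± 0.04, adjusted p = 0.864). OSGIN1 (0.40 ± 0.06) and BLVRB, biliverdin reductase B (0.34 ± 0.06), were higher, and UGDH, which makes UDP-glucuronate, was lower (-0.28 ± 0.03). Called higher were 5 members without Sagunja-tang high replicate 3 or Samul-tang high replicate 2 or 3, called lower were 3 without Sagunja-tang high replicate 2 or 3, and the fit of all 57 libraries called 2 in each direction. ABCC2, an export pump chosen after its values were seen, had the largest of these differences at a low level, 0.928, 1.71 and 0.869 CPM against 2.07, 2.15 and 2.21 CPM (-0.90 ± 0.19, adjusted p = 0.00109). Of 9 measured aryl hydrocarbon receptor targets 3 were lower, against 9.12% of all genes, and 0 higher. They were TIPARP, a feedback inhibitor of the receptor, at 56.5, 55.7 and 58.01 CPM against 76.1, 78.5 and 79.1 CPM (-0.46 ± 0.04, adjusted p = 1.17e-09), AHRR at -0.30 ± 0.05 and NQO1 at -0.12 ± 0.04. CYP1A1 and CYP1B1, the classical targets, were not called, at 0.19 and -0.04. AHR, the receptor gene, had 103, 101 and 107 CPM against 101, 109 and 97.3 CPM and was not called (0.02 ± 0.04, adjusted p = 0.813).

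**Figure D3:**
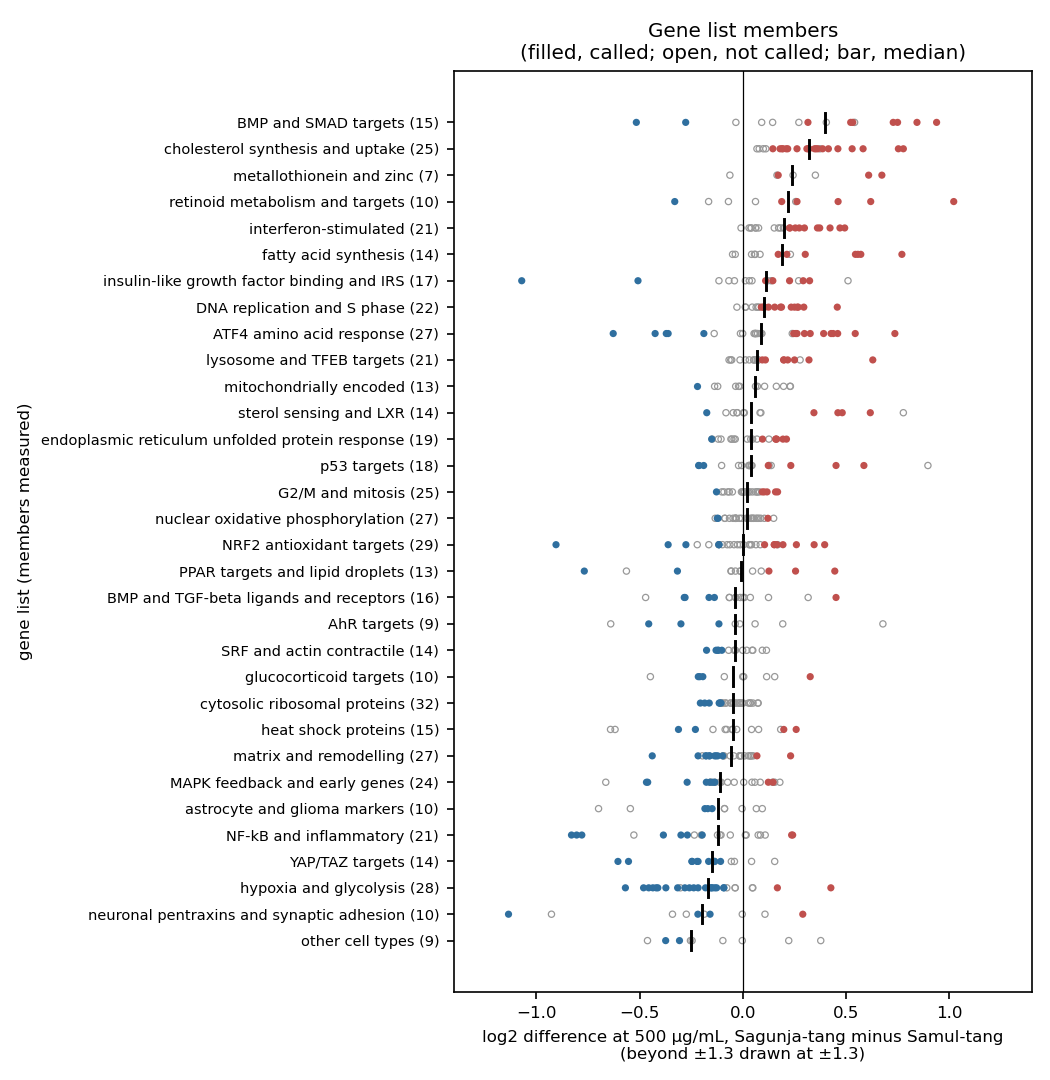
Log2 difference (Sagunja-tang high minus Samul-tang high, horizontal axis) of every measured member of the gene lists, with 1 row per list, called members filled, others open, the median as a bar, and the number measured in brackets. The cholesterol list lies to the right of 0 (20 of 25 called higher) and the hypoxia and glycolysis list mostly to the left (20 of 28 called lower).

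The counts of the remaining lists stand against 8.98% of all genes called higher and 9.12% called lower. PPAR targets and lipid droplet genes had 3 higher and 2 lower of 13, led by ANGPTL4, an inhibitor of lipoprotein lipase, at 19.6, 21.1 and 19.7 CPM against 35.5, 34.6 and 32.8 CPM (-0.77 ± 0.07, adjusted p = 2.54e-09), with CPT1A at -0.32 ± 0.06. Genes of the unfolded protein response were higher at 6 of 19 and lower at 1, heat shock proteins were higher at 2 of 15 and lower at 2, among them HSP90AB1 at -0.31 ± 0.03, and p53 targets were higher at 4 of 18 and lower at 3, with 2 called higher without Sagunja-tang high replicate 3 or Samul-tang high replicate 2. The near-identical HSPA1A and HSPA1B share reads, and the call of HSPA1B is therefore uncertain. Glucocorticoid targets were higher at 1 of 10 and lower at 3. Ribosomal protein genes were lower at 6 of 32, with a median of -0.05, and at 3 without Samul-tang high replicate 1 or 3. Of 13 mitochondrially encoded genes 1 was called, MT-CYB at -0.22 ± 0.07, and of 27 nuclear genes of oxidative phosphorylation 1 was higher and 2 were lower. Of 10 measured neuronal pentraxin and synaptic adhesion genes, the list that holds NPTX1, 1 was higher, NPTX2 at 0.29 ± 0.08, and 3 were lower. The astrocyte and glioma markers had 3 lower of 10, CD44 (-0.15 ± 0.02), EGFR (-0.18 ± 0.04) and SLC1A3 (-0.17 ± 0.05), and markers of other cell types 2 lower of 9, KRT18 (-0.31 ± 0.05) and PTPRC (-0.37 ± 0.09). The fit of all 57 libraries called lower 4 of the NF-kB genes, 3 of the MAPK genes, 1 each of the serum response factor, aryl hydrocarbon receptor, glucocorticoid, neuronal pentraxin and heat shock lists, and 0 of the ribosomal, p53 and astrocyte lists. It called higher 2 genes each of the unfolded protein response and p53 lists and 0 of the mitotic list. That fit called 831 genes in all, 52.6% of them higher. The shares that open this paragraph therefore do not apply to its counts.

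The same contrast was made at the lower doses, in other libraries. At 100 µg/mL 295 genes (1.71%) were called, 114 higher (0.662%) and 181 lower (1.05%) under Sagunja-tang, and 10 of them differed by at least 1.5-fold. This count was 110 without Sagunja-tang medium replicate 2, 145 without Samul-tang medium replicate 1 and 184 without Sagunja-tang medium replicate 3. At 20 µg/mL edgeR called 0 genes (0%), with 1507 genes at an unadjusted p below 0.05, while DESeq2 called 35. Of the 3118 genes called at 500 µg/mL, 88.8% had the same sign at 100 µg/mL and 56.8% at 20 µg/mL. Of the 345 genes at least 1.5-fold apart, 83.8% had the same sign at 100 µg/mL and 55.9% at 20 µg/mL, and their median log2 difference in the direction seen at the high dose was 0.79, 0.25 and 0.02 at the 3 doses. Of the 295 genes called at 100 µg/mL 256 were also called at 500 µg/mL, 255 of them with the same sign.

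The 1 gene called in opposite directions was INSIG1. At 100 µg/mL it was lower under Sagunja-tang, with 124 ± 3.05 CPM against 138 ± 2.66 CPM (SD, n = 3), a log2 difference of -0.16 ± 0.04 (adjusted p = 0.0305), and at 500 µg/mL it was higher. Whether this call at 100 µg/mL held in other fits was not followed. All calls at that dose numbered 69 with only the groups compared and 9 with all 57 libraries. INSIG1 was also the only member of the cholesterol list called at 100 µg/mL. The median of the list at this dose was -0.01, with 11 members positive and 14 negative. SCD was not called there, at 0.08 ± 0.04 (adjusted p = 0.338). Of the hypoxia and glycolysis list 3 of 28 were lower at 100 µg/mL. NPTX1 and IGFBP1 already differed at this dose, by -0.70 ± 0.11 (adjusted p = 3.22e-04) and -0.39 ± 0.07 (adjusted p = 0.00213), as did DHRS3 (0.27 ± 0.06, adjusted p = 0.0147), MIR100HG (-0.38 ± 0.05, adjusted p = 1.09e-05) and LIF (-0.32 ± 0.06, adjusted p = 0.00299). ID3 did not pass at 100 µg/mL (0.24 ± 0.07, adjusted p = 0.101).

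Whether the difference between the formulas was wider at 500 than at 20 µg/mL was tested directly, and it changed at 1326 genes (7.7%), 620 towards Sagunja-tang (3.6%) and 706 towards Samul-tang (4.1%). Of the 3118 genes called at the high dose 1201 (38.5%) were among them, all with the same sign. Both tests use the same high-dose libraries, so the shared sign is largely built in and is no separate evidence. IGFBP1 had 21.1 ± 0.988, 31.2 ± 2.16 and 56.8 ± 1.24 CPM at 20, 100 and 500 µg/mL of Samul-tang, and 23.4 ± 1.67, 23.8 ± 1.84 and 27.1 ± 0.827 CPM at the same doses of Sagunja-tang. Its level at 500 µg/mL was higher than at 20 µg/mL of Samul-tang, by 1.43 ± 0.07 (adjusted p = 9.24e-16), and the same step for Sagunja-tang was 0.21 ± 0.07 (adjusted p = 0.0481), with a change in the difference of -1.23 ± 0.10 (adjusted p = 4.85e-10). ID3 had 178 ± 12.2, 148 ± 5.28 and 97.7 ± 4.79 CPM over the doses of Samul-tang and 166 ± 5.73, 175 ± 5.74 and 175 ± 8.35 CPM over those of Sagunja-tang, so that only the Samul-tang groups went down with dose (change in the difference 0.94 ± 0.10, adjusted p = 2.41e-07). For INSIG1 the change was 0.57 ± 0.06 (adjusted p = 3.00e-08), for NPTX1 -1.04 ± 0.14 (adjusted p = 9.81e-06), for SCD 0.86 ± 0.05 (adjusted p = 2.50e-12) and for DHRS3 1.04 ± 0.09 (adjusted p = 4.85e-10).

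**Figure D4:**
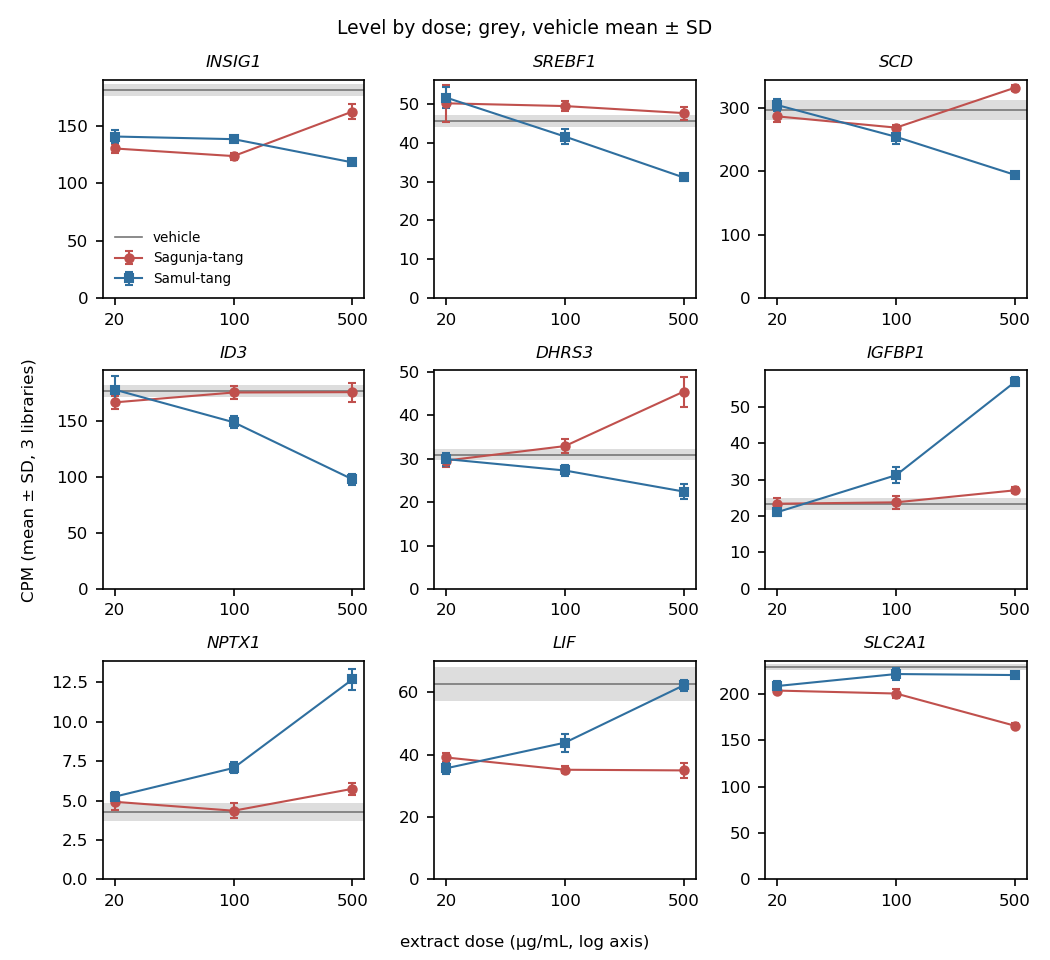
Group mean level in CPM (vertical axis, error bars SD, n = 3) of 9 genes at 20, 100 and 500 µg/mL (horizontal log axis) of Sagunja-tang and Samul-tang, with the vehicle mean ± SD as a grey line and band. The curves of the 2 formulas lie close at 20 µg/mL and apart at 500 µg/mL.

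Each formula was also set against the vehicle and against its own low dose. Against the vehicle, 7358 genes (42.7%) were called for Sagunja-tang high and 6763 (39.3%) for Samul-tang high. These comparisons share the vehicle libraries and, as stated above, differ from them in the sample code. Against its own low dose, in which the code is the same, 2594 genes (15.1%) were called for Sagunja-tang, 7.43% higher and 7.63% lower. For Samul-tang 1232 genes (7.15%) were called, 3.4% higher and 3.76% lower. Relative to its own low dose, SCD was higher at the high dose of Sagunja-tang, by 0.21 ± 0.04 (adjusted p = 9.64e-05), and lower at that of Samul-tang, at -0.65 ± 0.04 (adjusted p = 9.39e-14). INSIG1 moved the same way, by 0.32 ± 0.04 (adjusted p = 5.67e-07) and -0.25 ± 0.04 (adjusted p = 7.25e-05). Its vehicle libraries had 186.5, 180.8 and 176.5 CPM, above every high-dose library of both formulas. SREBF1 was not called under Sagunja-tang (-0.07 ± 0.05, adjusted p = 0.413) and was lower under Samul-tang (-0.73 ± 0.06, adjusted p = 1.58e-10). ID3 was lower at the high dose of Samul-tang (-0.86 ± 0.08, adjusted p = 1.09e-09) and not called for Sagunja-tang (0.08 ± 0.07, adjusted p = 0.549). NPTX1 was higher at the high dose of Samul-tang, by 1.27 ± 0.10 (adjusted p = 6.98e-11), and the same step for Sagunja-tang was 0.23 ± 0.11 (adjusted p = 0.156). LIF was higher at the high dose of Samul-tang than at its low dose, by 0.80 ± 0.06 (adjusted p = 2.63e-11), and not called for Sagunja-tang (-0.16 ± 0.06, adjusted p = 0.0703). At 20 µg/mL its level was 39.1 ± 1.52 CPM under Sagunja-tang and 35.6 ± 1.73 CPM under Samul-tang, both below the vehicle. SLC2A1 was lower at the high dose of Sagunja-tang (-0.30 ± 0.03, adjusted p = 1.32e-08) and not called for Samul-tang (0.08 ± 0.03, adjusted p = 0.118). DHRS3 was higher at the high dose of Sagunja-tang (0.62 ± 0.06, adjusted p = 1.67e-09) and lower at that of Samul-tang (-0.42 ± 0.06, adjusted p = 2.96e-05).

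By lists, the cholesterol genes had 7 higher and 3 lower of 25 against the vehicle under Sagunja-tang and 0 higher and 17 lower under Samul-tang. The hypoxia and glycolysis genes had 2 higher and 18 lower of 28 under Sagunja-tang and 6 higher and 12 lower under Samul-tang. BMP and SMAD targets had 0 higher and 4 lower of 15 under Sagunja-tang and 1 higher and 9 lower under Samul-tang. The NRF2 targets had 24 higher and 2 lower of 29 under Sagunja-tang and 27 higher and 0 lower under Samul-tang, and the mitotic genes 22 and 23 lower of 25. These 2 comparisons share the vehicle libraries. Against each formula's own low dose, 26 of the 29 NRF2 targets were higher under Sagunja-tang and 27 under Samul-tang, against 7.43% and 3.4% of all genes, and 16 and 19 of the 25 mitotic genes were lower, against 7.63% and 3.76%. Against the vehicle 21.2% of all genes were called higher and 21.5% lower for Sagunja-tang, and 19.2% and 20.1% for Samul-tang.

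Palmul-tang at 500 µg/mL, which contains the herbs of both formulas, had 44.4 ± 1.82 CPM of IGFBP1, 8.38 ± 0.691 CPM of NPTX1 and 227 ± 5.24 CPM of SCD (SD, n = 3), each between the means of the other two. Its level of INSIG1, 116 ± 2.39 CPM, was near that of Samul-tang, and that of ID3, 54.4 ± 2.94 CPM, was below both. These levels were not tested against each other. The dose of 500 µg/mL is that of the whole extract, and the labels do not give the amount of each formula's herbs in it. Palmul-tang libraries carry another sample code than both formulas, so that extract and code cannot be told apart in these levels either.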

How the data were processed

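The deposited table held expected counts per gene (Ensembl IDs), made by the authors with RSEM 1.3.3 after STAR 2.7.3a alignment to hg38, with FastQC 0.11.9 and Trim Galore 0.6.5, per the submitters' processing notes. Per the labels' protocols, a directional mRNA kit and paired-end reads were used. The annotation release and the strand setting of the counting are not given in the sources used here. The expected counts (90.8% whole within 1e-09) were rounded to whole numbers. Of 279 columns 60 matched a sample of the series, and 219 columns were not used.

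One edgeR 4.0.16 model (R 4.3.3, limma 3.58.1) was fitted to 30 libraries: vehicle and Sagunja-tang, Samul-tang and Palmul-tang at 3 doses, 3 libraries each (19793387 to 37152410 counts). It used filterByExpr, TMM scaling, 1 mean per group and the two-sided quasi-likelihood F test, with Benjamini-Hochberg adjustment over 17230 genes and calls at an adjusted p below 0.05. The scripts were tested on simulated data. The members, the 32 gene lists and the tests were chosen with earlier results of these data known. Names came from the reference tables for 56558 genes and from GENCODE 29 for 497 more, and 1624 tested genes had no symbol. Gene positions are from GENCODE 29 (GRCh38), promoter sequences from RefSeq (GRCh38.p14). Sequences shown and list counts use the first entry where a gene had several, and shares of all promoters use every entry.

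Genes were named by rule: the 12 largest differences in each direction among called genes with at least 5 CPM in one formula and no overlap of libraries (clone names and pseudogenes left out), up to 5 called members of each list with the smallest adjusted p, INSIG1, IGFBP1, NPTX1, ID3, and the regulators SREBF1, SREBF2, AHR, NFE2L2, FOXO1 and BMP4. Called genes outside this rule (among them SMAD6, BMPER, SLC1A5 and VLDLR) were chosen after their values were seen. Some genes that this rule or a list names are not reported here. Alternatives were RLE scaling, other count filters, other sets of libraries, a replicate block, a length and GC correction, DESeq2 1.42.0, a minimum fold and leaving out each library.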

Additional observations from a re-analysis of the deposited data

Results flagged for a closer look

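Each result below was singled out because the difference between Sagunja-tang and Samul-tang at 500 µg/mL departed from that at 20 µg/mL by edgeR's test of the interaction, in which no vehicle library enters. Over all 17230 genes tested this was so for 1326, of which 212 changed by at least 1.5-fold. Listed below are 36 of the 158 named genes, each with a change of at least 1.5-fold. Most genes were named for their difference at 500 µg/mL, and the interaction uses the same high-dose libraries. Large values of the same sign are therefore largely built in and are no separate evidence. Values are log2, high minus low dose, of Sagunja-tang minus Samul-tang.

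Among sterol and fatty acid genes the values were 0.86 for SCD, 0.69 for DHCR7, 0.66 for SREBF1, 0.65 for FADS2, 0.64 for MID1IP1 and 0.64 for NR1H3. Among BMP target genes they were 1.02 for ID4, 0.94 for ID3, 0.78 for ID2 and 0.76 for ATOH8. The retinal reductase gene DHRS3 had 1.04, and the metallothionein genes MT1X and MT1E had 0.68 and 0.65. The other genes that moved towards Sagunja-tang were ZMIZ1-AS1 at 0.99, SAMD11 at 0.96, FYB1 at 0.89, TLCD1 at 0.86, LINC00973 at 0.85 and HCFC1R1 at 0.72.

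Towards Samul-tang, IGFBP1 had the largest value, -1.23, followed by CXCL8 at -1.05, NPTX1 at -1.04, ANGPTL4 at -0.99, MIR100HG at -0.98 and LIF at -0.96. The complement gene C5 had -0.92, the interferon gene IFNE -0.91, MIR210HG -0.90, TRIM66 -0.89 and PTGS2 -0.85. F3 and CCN1, both YAP/TAZ targets, had -0.77 and -0.70. NAXD-AS1 had -0.67, HS6ST3 -0.64, STC2 -0.61 and EGR1 -0.60.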

How the results depend on the processing

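At 500 µg/mL the 3118 calls were 345 at a minimum of 1.5-fold, 831 in the fit of all 57 libraries and 2319 to 2722 with 1 library left out. At 100 µg/mL the 295 calls were 10 at a minimum of 1.5-fold, 449 with no filter on low counts, 9 with all 57 libraries, 69 with only the groups compared and 110 to 243 with 1 library left out. At 20 µg/mL the 0 calls were 169 with no filter, 2 with only the groups compared, 35 with DESeq2 and 0 to 0 with 1 library left out. The 1326 changes between doses were 212 at a minimum of 1.5-fold, 218 with all 57 libraries and 974 to 1432 with 1 library left out. The cause of these changes was not tested. RLE scaling (3125 calls at 500 µg/mL), a minimum of 1 CPM (3207), a length and GC correction (3242), DESeq2 (2617) and the fit of 55 libraries (2866) stayed within 1.5 times. Same-numbered high-dose libraries of the formulas correlated at 0.0113, 0.0707 and 0.0992 in their deviations from the group means. Over all doses of both formulas, 14 of 18 libraries were closest to their own number. The median correlation was 0.0216 for the same number and -0.00963 for other numbers. The labels do not say what same-numbered libraries share, and the main fit left the number out. With the replicate block, 3328, 354, 0 and 1475 calls were made in the 4 comparisons above. Single genes were followed under the alternatives at 500 µg/mL only, not at the lower doses or for the change between doses. Of 158 named genes 69 lost their call in at least 1 alternative, and 88 kept their result in all. Of 2370 results for these 158 genes under 15 alternatives, 2178 kept their side of the threshold and their direction, 190 lost the call, and 2 changed sign. Both were the uncalled AHR, at -0.004 without Sagunja-tang high replicate 3 and -0.016 without Samul-tang high replicate 3, within a range up to 0.068 over libraries left out. The list medians that changed sign were those of the BMP and TGF-beta ligands, the NRF2 targets and the mitochondrial and nuclear genes of oxidative phosphorylation. With 3 libraries a group and 26929143 to 37152410 counts in each, a gene that was not called is not shown to be alike.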

Other observations

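Selenoprotein genes, which need selenium for their translation, were looked up after values of some of them had been seen. Of 25 genes of this family 20 were measured, 6 were higher under Sagunja-tang, 3 were lower, 11 were not called, and the median log2 difference was 0.02. Of all genes tested 8.98% were called higher and 9.12% lower. GPX1, a glutathione peroxidase, had 202, 209 and 212 CPM in the Sagunja-tang libraries and 127, 128 and 141 CPM in the Samul-tang libraries, a difference of 0.65 ± 0.04 (edgeR, adjusted p = 7.49e-13). SELENOW, a small thioredoxin-like selenoprotein, had 68.8, 66.6 and 62.1 CPM against 39.6, 41.7 and 40.7 CPM, a difference of 0.69 ± 0.08 (adjusted p = 4.03e-08). GPX3, SELENOH, GPX4 and SELENON were higher, at 0.42, 0.39, 0.34 and 0.19. DIO2, the deiodinase that activates thyroid hormone in glia, went the other way, with 36.9, 36.3 and 37.8 CPM against 63.6, 58.4 and 61.6 CPM, a difference of -0.73 ± 0.04 (adjusted p = 7.60e-15). TXNRD1 (-0.12) and SELENOI (-0.13) were the other members called lower.

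Host genes of small nucleolar RNAs, also looked up after values were seen, were lower under Sagunja-tang at 11 of 28 and higher at 0, with 17 not called and a median of -0.14, against the same shares of all genes. SNHG5 had 20.01, 18.3 and 16.5 CPM against 28.2, 30.8 and 29.6 CPM, a difference of -0.70 ± 0.07 (adjusted p = 1.18e-08). GAS5, a transcript that accumulates when growth stops, had 65.5, 63.3 and 60.5 CPM against 82.98, 83.2 and 83.5 CPM, a difference of -0.40 ± 0.04 (adjusted p = 9.07e-09). SNHG3, SNHG12, SNHG1 and SNHG7 were lower, at -0.43, -0.37, -0.33 and -0.33. At SNHG5 and GAS5 all 3 Sagunja-tang libraries lay below all 3 Samul-tang libraries.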
